A study of Mus musculus with 4 samples.

Results

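The spots studied here were the most collagen-rich spots of 3 mouse heart sections, taken on days 4, 7 and 14 after myocardial infarction (MI). They were chosen by measured values. In each section, spots were set aside where hemoglobin genes took over 1% of the unique molecular identifiers (UMIs, each counting 1 captured mRNA molecule) or where there were fewer than 500 UMIs, as were day 7 spots with 10 or more UMIs of the fast skeletal muscle genes Myh1, Myh2, Tnnc2, Tnnt3 and Mylpf. The remaining spots were ranked by the share of their UMIs in Col1a1, Col1a2 and Col3a1, and the top 12% were kept. This gave 651 of the 9102 spots of the series: 201 of 1674 eligible spots on day 4, 206 of 1720 on day 7 and 244 of 2036 on day 14. Hemoglobin removed 347, 336 and 655 spots on the 3 days, the UMI minimum a further 5, 18 and 50, and the skeletal muscle rule 110 spots of day 7.

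The sections came from hearts of adult Hsd:ICR (CD1) mice, given in the study's methods as female and 12 weeks old, and in all of them the left anterior descending (LAD) coronary artery was tied off for good, so the tissue downstream of the suture was not reperfused. Fresh-frozen hearts were embedded in OCT and cut at 10 µm for Visium, a slide of barcoded spots that each collect RNA from the group of cells above them. There was 1 section of 1 mouse per day, no uninjured heart was analysed here, and the day 1 section of the series was not used here. Mouse, section and day therefore cannot be told apart, no test between days was made, and every interval below is a 95% interval that covers counting error only. PCR and capture could add error that these intervals do not hold.

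After an infarct, lost muscle is replaced by a scar. Macrophages clear debris while fibroblasts become contractile, matrix-secreting myofibroblasts, and the collagen they lay down is trimmed, crosslinked and woven together with elastic fibres and proteoglycans as the scar matures. Type I collagen is built from the chains of Col1a1 and Col1a2 and type III collagen from Col3a1, and they are the main fibrillar collagens of heart scar. Later scar fibroblasts are known to lose contractile genes and to express genes of cartilage and tendon matrix.

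The values that chose the spots were as follows. On day 4 the 3 collagens made up 3.43% to 7.43% of the UMIs of a chosen spot with a median of 4.41%, and the first spot left out had 3.41%. On day 7 the range was 4.29% to 9.05% with a median of 5.60%, and the first spot left out had 4.28%. On day 14 the range was 1.08% to 7.68% with a median of 2.88%, and the first spot left out also had 1.08%. The chosen spots thus had a lower collagen limit on day 14 than on the other days. The other eligible spots had a median of 0.128%, 0.129% and 0.0391% on days 4, 7 and 14, and the chosen spots held 46.2%, 48.6% and 58.4% of all UMIs of these collagens in eligible spots.

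**Figure D1:**
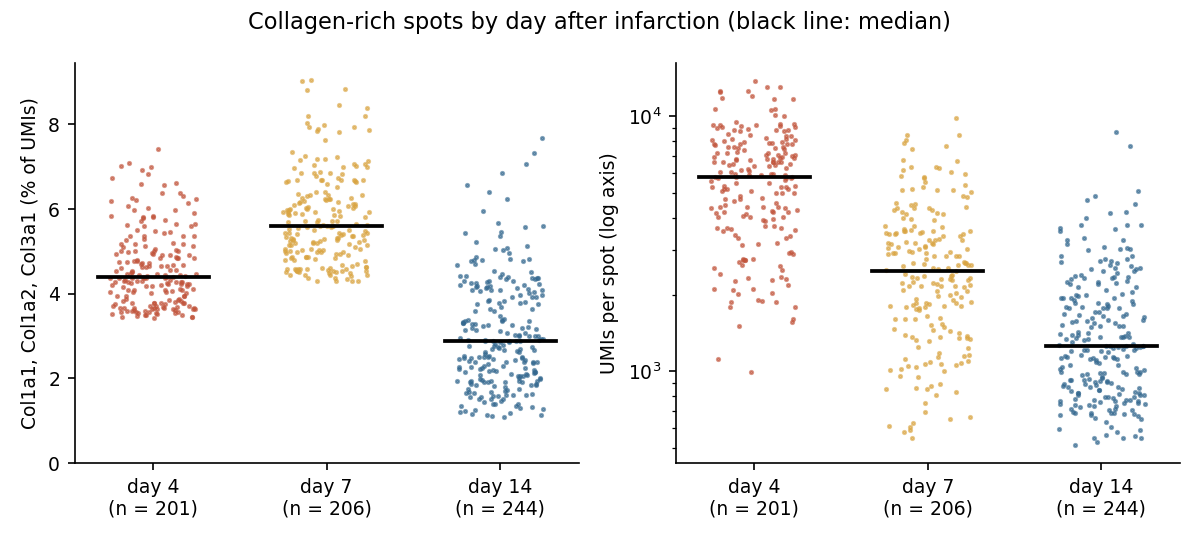
Share of UMIs in Col1a1, Col1a2 and Col3a1 (left, percent) and total UMIs (right, log axis) in each of the 201, 206 and 244 collagen-rich spots of days 4, 7 and 14, 1 point per spot, with the median as a black line. The median collagen share was 4.41%, 5.60% and 2.88%, and the median depth went from 5786 to 2483 to 1259 UMIs per spot.

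The collagen-rich spots were shallower than the rest of their sections. Their median was 5786 UMIs on day 4, 2483 on day 7 and 1259 on day 14, against 9131, 5436 and 8805.5 UMIs in the other eligible spots. Summed over the spots, the profiles held 1185285, 585756 and 390847 UMIs. Values below are UMIs divided by the total UMIs of such a summed profile and scaled to 1000000 (CPM). They are shares, and higher and lower below refer to these shares. A gene can be higher in CPM on a day when fewer of its UMIs were captured. The libraries shared 1572 to 1910 barcodes between any pair of days, since a barcode names a place on the slide, and 0, 6 and 42 of them were collagen-rich in both sections of a pair. Fewer cells of a type and less RNA per cell cannot be told apart in spots.

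Heart muscle genes were summed to describe what else the spots held. The rule ranks spots by a share of the same UMIs, so a lower muscle share is partly built in. These values therefore do not test whether the spots are scar, and spot positions were not used. Genes of working cardiomyocytes, 22 in all, summed to 11432 CPM on day 4 and 10939.7 CPM on day 7 against 88576 and 104782 CPM in the other eligible spots. On day 14 they summed to 22103 CPM against 114600.0 CPM. Heart muscle genes thus took a larger share of UMIs in the day 14 spots than on the earlier days. That share was still far below the rest of the section. These are shares, and the amount of heart muscle RNA per spot was not compared. Among the day 14 spots, put in 4 equal groups by collagen share, the group with the highest share had 10684 CPM of the list and the group with the lowest share 34684 CPM. Mitochondrial transcripts, which heart muscle holds in bulk, went the same way, with 35784, 31322 and 56349 CPM on days 4, 7 and 14. Whether heart muscle RNA accounts for the differences below was not tested. Values were recomputed without spots rich in cardiomyocyte genes, and with cardiomyocyte and mitochondrial genes left out of the totals. Without the spots in which the cardiomyocyte list took over 2% of UMIs, 159, 173 and 128 spots remained and the list stood at 8483 CPM on day 14. The log2 ratios of day 14 to day 4 were then 3.85 for Eln, 2.88 for Comp, 4.39 for C3 and -4.58 for Spp1, genes that are described below, against 3.87, 3.16, 3.87 and -4.66 over all collagen-rich spots.

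Of 3719 genes with at least 100 UMIs over the 3 profiles, 95 were at least 2-fold higher on day 7 than on day 4 (2.55% of the genes) and 80 at least 2-fold lower (2.15%). From day 7 to day 14, 109 of 3718 genes were at least 2-fold higher (2.93%) and 119 at least 2-fold lower (3.20%). Between days 4 and 14, 143 were at least 2-fold higher on day 14 (3.85%) and 165 at least 2-fold lower (4.44%). The median log2 ratios over these genes were -0.02, -0.03 and -0.06. The comparisons share sections, so they are not independent of each other. At least 2-fold above both other days stood 36 genes on day 4, 19 on day 7 and 60 on day 14.

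**Figure D2:**
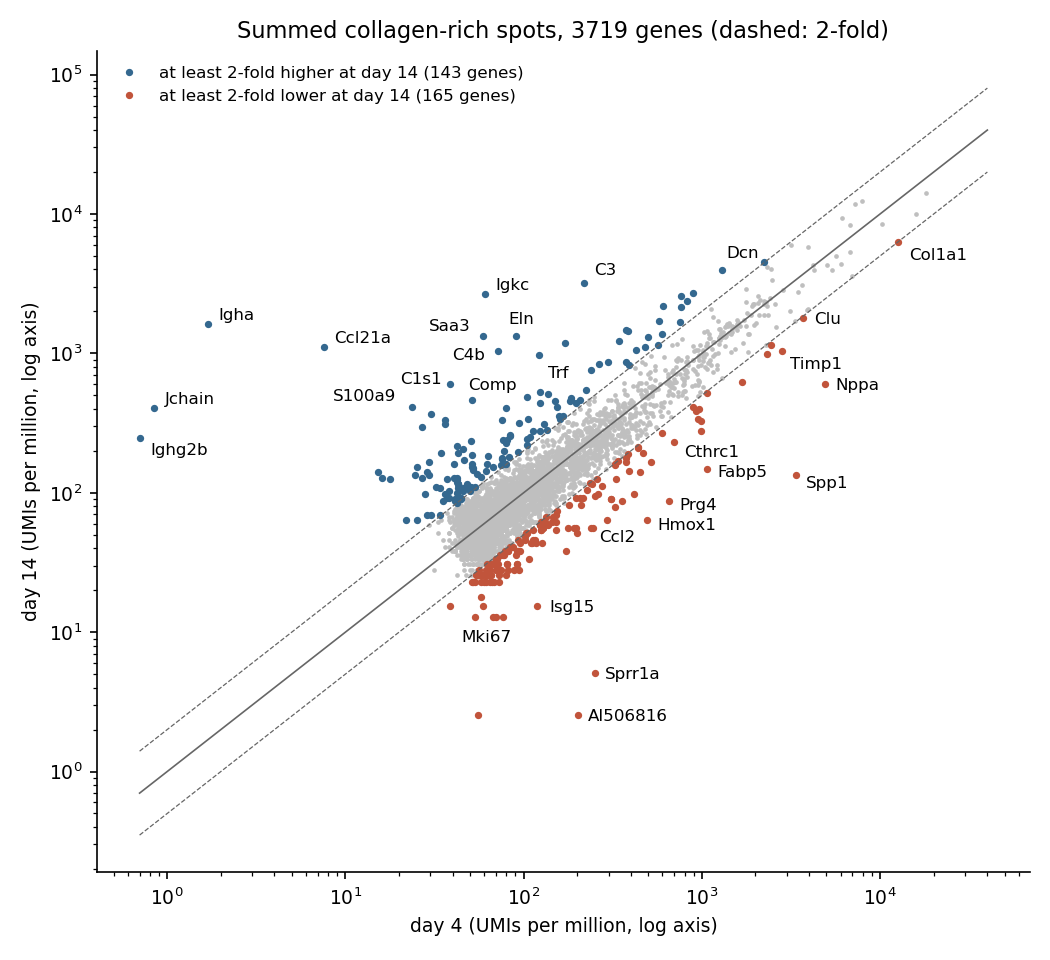
Each of 3719 genes by its CPM in the summed collagen-rich spots of day 4 (horizontal) and day 14 (vertical), both on log axes, with 2-fold limits dashed. The 143 genes at least 2-fold higher on day 14 are blue and the 165 at least 2-fold lower are red. Ighg2b, which had 0 UMIs on day 4, is drawn at the left edge.

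The fibrillar collagens that chose the spots are given as a description. Col1a1 was at 12677 CPM on day 4, 19734 on day 7 and 6329.8 on day 14. Col1a2 was at 15942, 17649 and 9927 CPM, and Col3a1 at 18180.4, 19785 and 14223 CPM. All 3 were highest on day 7 and lowest on day 14, and day 14 was 2.00-fold below day 4 for Col1a1, 1.61-fold for Col1a2 and 1.28-fold for Col3a1. Of the type I chains, Col1a1 differed more between the days than Col1a2. When 1 collagen limit was used for all sections, 248, 295 and 109 spots were left. The log2 ratios of day 14 to day 4 were then -0.33 for Col1a1, -0.06 for Col1a2 and 0.21 for Col3a1. That limit acts on these same 3 collagens and so draws their levels together. Nothing further can be read from these ratios.

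Among 17 other collagens with enough UMIs, 3 were at least 2-fold higher on day 7 than on day 4 and 0 lower, and 6 were at least 2-fold lower on day 14 than on day 7 and 0 higher. Between days 4 and 14, 1 was higher and 2 were lower, with a median log2 ratio of -0.39. Over all genes these shares were 3.85% and 4.44%, so counts this small among 17 genes do not set the list apart. Col11a1, a chain of the minor fibrillar type XI collagen of cartilage, was at 94.5 CPM on day 4, 278 on day 7 and 113 on day 14. Col8a2, a short-chain collagen, was at 21.9, 147 and 64.0 CPM. Both were highest on day 7, and the summed list stood at 10331, 12587 and 8021 CPM. Col5a2, whose type V collagen is built into type I fibrils, was at 1819, 1736 and 1029 CPM, and Col4a1 of the basement membrane at 969, 756 and 622 CPM.

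Genes that process and crosslink collagen were lower in sum on day 14, though most members did not pass 2-fold. The 27 listed genes summed to 11785, 12068 and 8208 CPM. Between days 4 and 14, 0 of the 25 measured members were at least 2-fold higher and 5 were lower, with a median log2 ratio of -0.36. Serpinh1, the collagen chaperone HSP47, was at 2435, 2236 and 1154 CPM, and day 14 was 2.11-fold below day 4 (interval 1.91 to 2.34). Lox, the lysyl oxidase that starts collagen and elastin crosslinks, was at 599.9, 656 and 269 CPM. Loxl3, a relative of Lox, was at 356, 208 and 87.0 CPM, and P4ha3, a catalytic subunit of collagen prolyl 4-hydroxylase, at 81.8, 140.0 and 28.1 CPM. For all 4 genes the day 14 level was the lowest of the 3. Loxl1, another relative of Lox and the second most abundant member, was instead highest on day 7 and close on the other days, at 1303, 2165 and 1320.2 CPM. The 26 genes of the secretory pathway summed to 9727, 10153 and 6790.4 CPM, with 2 at least 2-fold lower on day 14 than on day 4 and 0 higher (median log2 ratio -0.50), a share near the 4.44% of all genes. Of the 2, Hspa5, the main chaperone of the endoplasmic reticulum, was at 1069.8, 1123 and 519 CPM.

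Elastic fibre genes had a different order. Eln, which encodes elastin (chr5:134702593-134747323, GRCm38), was at 91.1 CPM on day 4 (interval 74.7 to 110.0), 1047 on day 7 (965 to 1133) and 1330.4 on day 14 (1219 to 1449.9). Most of this difference lay between days 4 and 7, which differed 11.5-fold (9.35 to 14.2), and day 14 stood 14.6-fold above day 4 (11.8 to 18.1). After each spot was thinned to 500 UMIs, 3.98% of day 4 spots, 34.0% of day 7 spots and 48.0% of day 14 spots still held an Eln UMI, against 1.97%, 9.05% and 2.01% of the other spots, and before thinning 35.3%, 74.8% and 75% of the collagen-rich spots held one. The other eligible spots held Eln at 34.6, 229 and 20.1 CPM. The day 14 level was about the same at the highest and lowest collagen share, with 1241 and 1234 CPM in the top and bottom of the 4 groups of spots.

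Fbln5, a fibulin needed to assemble elastin into fibres, was at 76.8, 253 and 241 CPM, and Fbln1, a fibulin found along elastic fibres, at 608, 1793 and 2172 CPM. Day 7 stood 3.29-fold above day 4 for Fbln5 and 2.95-fold for Fbln1. Days 7 and 14 differed less, with intervals of the day 14 to day 7 ratio of 0.725 to 1.24 for Fbln5 and 1.11 to 1.33 for Fbln1. Fbln2 ran the other way, at 1691, 794 and 619 CPM. Over the 17 measured genes of elastic microfibrils, 5 were at least 2-fold higher on day 14 than on day 4 and 3 were lower, with a median log2 ratio of 0.59. That median became -0.47 when the top 20% of spots were taken, a choice that brought the cardiomyocyte list of day 14 to 76753 CPM, and -0.03 with a minimum of 1000 UMIs per spot. Eln itself stayed higher under both, by 2.53 on the log2 scale with the top 20% of spots.

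The small leucine-rich proteoglycans, which bind collagen and set the spacing and width of its fibrils, summed to 9060.3, 14332 and 12449.9 CPM. Of the 7 measured members, 3 were at least 2-fold higher on day 14 than on day 4 and 0 lower, with a median log2 ratio of 0.88, which was -0.03 for the top 20% of spots. Dcn, decorin, was at 1293, 2223 and 3948 CPM, and day 14 stood 3.05-fold above day 4 (2.84 to 3.28). Prelp, which links fibrils to basement membranes, was at 104, 263 and 484 CPM. Both were higher at each later day. Fmod, fibromodulin, was highest on day 7 with 29.5, 277 and 166 CPM, as was Lum, lumican, with 1131, 2428 and 2088 CPM. Bgn, biglycan, differed less, with 5660.2, 7308 and 5022 CPM, and was lowest on day 14.

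Matricellular proteins signal to cells from the matrix. The 22 listed genes summed to 28466, 30986 and 19716 CPM, and between days 4 and 14 the 20 measured members split into 4 at least 2-fold higher and 4 at least 2-fold lower. Their median log2 ratio was -0.38, and 0.07 with 1 collagen limit for all sections. Spp1, osteopontin, which macrophages of the early infarct make in quantity, was at 3355 CPM on day 4 (3252 to 3461), 837 on day 7 (764 to 914) and 133 on day 14 (99.4 to 174). It was 25.2-fold lower on day 14 than on day 4 (19.2 to 33.8). Spots holding an Spp1 UMI went from 95% to 48.5% to 15.2%, and from 64.2% to 25.7% to 5.33% after thinning to 500 UMIs, against 9.16%, 1.92% and 0.112% of the thinned other spots. At 500 UMIs per spot the share of spots with an Spp1 UMI largely follows its mean level, so it restates the difference in CPM. Postn, periostin, the matrix protein that marks activated fibroblasts, was at 3353, 5480.1 and 1707 CPM. Fn1, fibronectin, was at 5015, 5094 and 4334 CPM, and Sparc, a collagen-binding glycoprotein, at 10220.3, 12536 and 8479 CPM. Fn1 and Sparc varied less between the days than Postn did. Ccn5 and Ccn3, members of the CCN family of secreted regulators, were higher on each later day, with 123, 207 and 438 CPM for Ccn5 and 17.7, 64.9 and 125 CPM for Ccn3.

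**Figure D3:**
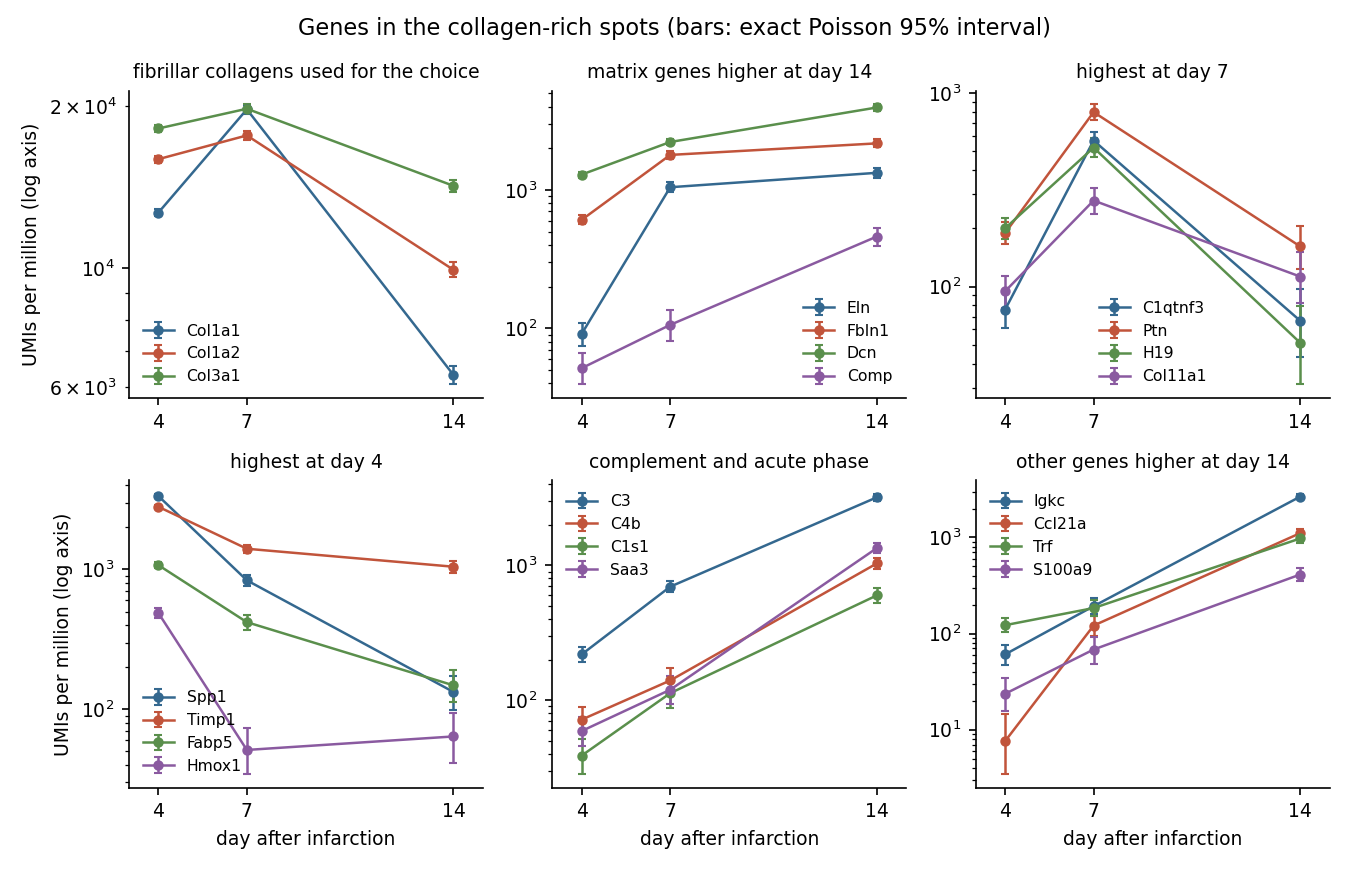
CPM of single genes in the summed collagen-rich spots by day after infarction, on log axes that differ between panels, with exact Poisson 95% intervals as bars and 1 section per day. Col1a1, Col1a2 and Col3a1, which chose the spots, were highest on day 7. Spp1 went from 3355 to 133 CPM between days 4 and 14, and C3 from 219 to 3196 CPM.

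Matrix-degrading enzymes and their inhibitors did not move as 1 group. Of 11 measured members, 4 were at least 2-fold higher on day 14 than on day 4 and 1 was lower, with a median log2 ratio of 0.30. That median was -0.89 with the top 20% of spots and -0.43 with a minimum of 1000 UMIs per spot. Timp1, a metalloproteinase inhibitor that also acts as a secreted signal, was at 2809, 1407 and 1046 CPM, 2.68-fold lower on day 14 than on day 4 (2.42 to 2.98). Timp3, an inhibitor bound to the matrix, was at 124, 242 and 532 CPM and so 4.29-fold higher (3.46 to 5.34), and Timp2 was at 565, 929 and 1156 CPM. The inhibitors therefore differed in their day of highest level, which was day 4 for Timp1 and day 14 for the other two. For Timp2 the log2 ratio of day 14 to day 4 was 1.03 and was -0.09 with the top 20% of spots. Mmp2, the gelatinase of fibroblasts, was at 751, 1852 and 1686 CPM, and Mmp9, a gelatinase of leukocytes, at 94.5, 59.8 and 48.6 CPM. The log2 ratio of Mmp9, -0.96, was 0.29 with the top 6% of spots. Lrp1, an endocytic receptor that binds many proteases and inhibitors, TIMP1 among them, was at 718, 695 and 893 CPM. Lrp1 was 1.24-fold higher on day 14 than on day 4 (1.09 to 1.41), but this direction depended on the spots taken. Its log2 ratio of 0.31 was -0.70 with the top 20% of spots and -0.34 with the minimum of 1000 UMIs, whereas that of Timp1, -1.42, was -2.79 and -2.09.

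Fibroblast genes were listed by state. The activated list of contractile and infarct genes summed to 12680.5, 12246 and 7097 CPM, and the other eligible spots held 7616, 7508 and 6016 CPM. On day 14, after thinning, Postn was found in 2.29% of the other spots, Timp1 in 1.12% and Cthrc1 in 0.167%. In the thinned collagen-rich spots these shares were 51.6%, 30.3% and 12.7%. These members thus made up little of the day 14 sum in the other spots. Which members made up the rest was not tested. The sum there cannot be read as a level of activated fibroblasts. In the collagen-rich spots, 7 of the 17 measured members of the list were at least 2-fold lower on day 14 than on day 4 against 1 higher, with a median log2 ratio of -0.74. Tpm1, among its 3 most abundant members, had a log2 ratio of -0.31 that was 0.83 with the top 20% of spots. Acta2, the smooth muscle actin of myofibroblasts, was at 964, 577 and 399 CPM and Tagln, another contractile protein, at 515, 307 and 166 CPM. Both were lower at each later day. Cthrc1, a secreted protein of infarct myofibroblasts, was instead level from day 4 to day 7 and lower on day 14, at 696, 749 and 230.3 CPM. Acta2 and Tagln are also genes of vascular smooth muscle. The single member that was higher was Cilp, at 51.5, 92.2 and 161 CPM.

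Of the 11 measured genes of matrifibrocytes and cartilage-like matrix, 7 were at least 2-fold higher on day 14 than on day 4 and 1 was lower, with a median log2 ratio of 1.59. That median was 0.26 with the top 20% of spots. The list was already higher on day 7, with 6 members at least 2-fold above day 4 and 1 below (median 1.04). From day 7 to day 14, 2 were higher and 2 lower (median -0.37), and the whole list summed to 2317, 3213 and 3239 CPM. Comp, cartilage oligomeric matrix protein (chr8:70373558-70382066), was at 51.5, 106 and 461 CPM, and day 14 stood 8.95-fold above day 4 (6.66 to 12.2) and 4.35-fold above day 7 (3.24 to 5.90). It was found in 89 of the 244 day 14 spots. Not all members went this way. Prg4, lubricin, the boundary lubricant of joints, was at 654, 138 and 87.0 CPM, 7.52-fold lower on day 14 than on day 4. Prg4 is also a gene of heart valves and was the valve-list member that was at least 2-fold lower, 1 of 3 measured.

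Genes known from resting fibroblasts took a larger share of UMIs at each later day. The UMIs themselves numbered 5965, 4912 and 4685 on days 4, 7 and 14, from shallower spots on each later day. The list stood at 5033, 8386 and 11987 CPM, and the other eligible spots held 3582, 4664 and 2605 CPM. Of 15 measured members, 11 were at least 2-fold higher on day 14 than on day 4 and 0 lower, with a median log2 ratio of 1.19. That median was 0.35 with the top 20% of spots. The lists overlap, and Dcn, Igfbp4 and Serping1, which are given under other lists, are counted here as well. Pi16, a gene of adventitial fibroblasts, was at 36.3, 183 and 333 CPM, 9.17-fold higher on day 14 than on day 4 (6.45 to 13.3). Entpd2, a cell-surface ATPase, was at 34.6, 80.2 and 192 CPM, and Pdgfra, the growth factor receptor common to fibroblasts, at 78.5, 80.2 and 161 CPM. Pi16 and Entpd2 were higher at each later day, and Pdgfra only on day 14. The log2 ratio of Pdgfra, 1.04, was -0.03 with the top 20% of spots. Among the collagen-rich spots of day 14, 26.6% of the UMIs of the list lay in the top 10% of spots, close to the 25.1% of all transcripts. All 244 of these spots held a UMI of the list, which for a list this abundant largely restates its level.

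Secreted regulators of growth signals were also compared. Of 4 measured Wnt modulators, 3 were at least 2-fold higher on day 14 than on day 4 and 0 lower. Their median log2 ratio was 1.54, and 0.28 with the top 20% of spots. Sfrp2, a secreted Wnt binder, was at 150.2, 657 and 453 CPM, Sfrp1 at 79.3, 256 and 228 CPM, and Dkk3 at 81.0, 304 and 238 CPM. All 3 were highest on day 7, with day 14 below it by at most 1.45-fold. Of 8 measured genes of the insulin-like growth factor pathway, 4 were at least 2-fold higher and 1 lower. Their median was 1.16, and 0.11 with the top 20% of spots. Igfbp4 and Igfbp6, binding proteins that hold the factors, were at 373, 864 and 1469 CPM and at 79.3, 201 and 407 CPM. Igf1 itself was at 77.6, 164 and 199.6 CPM, with a log2 ratio of 1.36 that was -0.08 with the top 20% of spots.

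A small set of genes stood out on day 7 alone. C1qtnf3, a secreted protein of cartilage and fibroblasts (chr15:10952332-10980150), was at 75.9 CPM on day 4, 568 on day 7 and 66.5 on day 14, that is 7.49-fold above day 4 (5.92 to 9.56) and 8.55-fold above day 14 (5.73 to 13.3). Ptn, the growth factor pleiotrophin, was at 189, 797 and 161 CPM. H19, an imprinted long non-coding RNA of growing tissue, was at 199.95, 522 and 51.2 CPM, and Itm2a, a membrane protein of developing cartilage and muscle, at 242, 818 and 338 CPM. With Col11a1 these were the 5 genes furthest above both other days on day 7 among genes with at least 200 UMIs over the 3 profiles. In the other eligible spots C1qtnf3 was at 9.42, 39.1 and 0.653 CPM and Ptn at 20.1, 58.9 and 4.25 CPM, so the day 7 level was the highest there too. Day 7 spots with skeletal muscle genes had been removed, but the summed fast skeletal muscle list was still 558 CPM on day 7 against 21.9 and 79.3 CPM on days 4 and 14.

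Genes of the complement system, the blood and tissue proteins that tag debris and microbes for removal, took a larger share of UMIs on day 14. Of 15 measured members, 8 were at least 2-fold higher on day 14 than on day 4 and 1 was lower. Their median log2 ratio was 1.27, and 0.35 with the top 20% of spots. The list summed to 6639.8, 6214 and 11979 CPM. C3, the central component (chr17:57203970-57228136), was at 219 CPM on day 4 (193 to 247), 695 on day 7 (629 to 766) and 3196 on day 14 (3021 to 3378). The ratio of day 14 to day 4 was 14.6 (12.8 to 16.8). C4b, which works with C3 in the classical pathway, was at 71.7, 140.0 and 1034 CPM, and C1s1, the protease that cuts C4, at 38.8, 113 and 599 CPM. C4b was 14.4-fold and C1s1 15.4-fold higher on day 14 than on day 4, and for all 3 genes the ratio was larger from day 7 to day 14 than from day 4 to day 7. Serping1, the inhibitor of these proteases, was at 501, 738 and 1315 CPM, and C1qa of the recognition subunit at 224, 377 and 542 CPM. C1qb, another chain of that subunit, did not pass 2-fold, with a log2 ratio of 0.29 that was -0.91 with the top 20% of spots. With the top 20% of spots, the log2 ratio of day 14 to day 4 was 0.35 for Serping1, 0.007 for C1qa and 2.53 for C3. Clu, clusterin, was the member that was lower, at 3706, 1985 and 1788 CPM. Clu is also a stress gene of cardiomyocytes and its log2 ratio of -1.05 was -0.05 without the cardiomyocyte-rich spots described above. The higher C3 level was not seen outside the collagen-rich spots, where C3 was at 217, 249 and 105 CPM.

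The share of collagen-rich spots with a C3 UMI went from 62.7% to 60.2% to 73.4%, and from 12.9% to 25.2% to 63.9% once every spot was thinned to 500 UMIs. The thinned other spots held 10.9%, 11.6% and 6.03%. Of 10 measured genes of the acute phase and IL-6 family response, 2 were at least 2-fold higher on day 14 than on day 4 and 0 lower, so most of that list did not share the pattern (median log2 ratio 0.21, and -0.56 with the top 20% of spots). Saa3, an acute phase protein made locally by fibroblasts and macrophages (chr7:46711998-46715700), was at 59.1 CPM on day 4 (46.04 to 74.6), 119.5 on day 7 (93.2 to 151) and 1343 on day 14 (1231 to 1463), 22.7-fold higher on day 14 than on day 4 (17.7 to 29.6). Lbp, which binds bacterial lipopolysaccharide, was at 84.4, 34.1 and 258 CPM. Hp, haptoglobin, peaked on day 7 instead, at 237, 516 and 202 CPM. Trf, transferrin, the iron carrier of plasma, was at 122, 184 and 977 CPM, 7.99-fold higher on day 14 than on day 4 (6.58 to 9.74). C4b has a close copy in the mouse genome, and reads may be split between the copies.

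Promoters of the complement and acute phase lists were read from RefSeq to show the sequence around the start of these genes. Of the 25 measured members, 16 had an entry, 4 of them among the 10 that were at least 2-fold higher on day 14 than on day 4. The other 6 higher genes, C4b, C1qa, Serping1 and Lbp among them, were not searched. Each window spans 300 bases, most of them upstream of the start. Windows were searched on both strands for TTGCNNAA, the form bound by C/EBP factors, for TTCNNNGAA, the form bound by STAT factors, and for TATAAA of the TATA box, with motifs chosen after the values were known. TTGCNNAA was found in all 4 higher genes that were searched and in 0 of the other 12, and in 10.8% of 32851 promoters of 27025 genes. TTCNNNGAA was found in 1 of 4 and 1 of 12, and in 8.30% of all promoters. TATAAA was found in 1 of 4 and 2 of 12, and in 13.6% of all. A match is a description of the letters and not evidence of a bound site. The 4 windows with the C/EBP form are shown because they belong to the searched genes of these lists that were at least 2-fold higher, C1ra having been named after its values were seen. They are written 5′ to 3′ on the strand of the gene (GRCm38.p6), in lower case with the match in capitals, and its first base lies at position 206 for C3, 152 for Saa3, 9 for C1s1 and 267 for C1ra, counted from 1 at the 5′ end. The windows lie at chr17:57228087-57228386 (minus strand) for C3, chr7:46715627-46715926 (minus) for Saa3, chr6:124542310-124542609 (minus) for C1s1 and chr6:124512371-124512670 (plus) for C1ra.
C3: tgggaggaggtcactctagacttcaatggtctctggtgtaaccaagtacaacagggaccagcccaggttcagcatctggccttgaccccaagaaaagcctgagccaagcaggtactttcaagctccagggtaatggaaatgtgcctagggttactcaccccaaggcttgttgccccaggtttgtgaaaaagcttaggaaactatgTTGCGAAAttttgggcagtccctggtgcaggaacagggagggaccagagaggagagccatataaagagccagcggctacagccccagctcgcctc
Saa3: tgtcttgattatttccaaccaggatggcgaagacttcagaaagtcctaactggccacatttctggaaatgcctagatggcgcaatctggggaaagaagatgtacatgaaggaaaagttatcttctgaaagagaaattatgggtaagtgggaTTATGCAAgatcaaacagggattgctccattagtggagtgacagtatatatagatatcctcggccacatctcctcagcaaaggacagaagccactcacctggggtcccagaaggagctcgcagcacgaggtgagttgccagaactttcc
C1s1: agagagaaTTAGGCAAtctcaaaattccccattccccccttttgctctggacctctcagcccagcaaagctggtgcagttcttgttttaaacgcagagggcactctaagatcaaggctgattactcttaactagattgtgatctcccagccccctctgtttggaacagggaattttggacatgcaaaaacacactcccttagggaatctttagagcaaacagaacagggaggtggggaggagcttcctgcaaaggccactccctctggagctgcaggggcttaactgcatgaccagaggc
C1ra: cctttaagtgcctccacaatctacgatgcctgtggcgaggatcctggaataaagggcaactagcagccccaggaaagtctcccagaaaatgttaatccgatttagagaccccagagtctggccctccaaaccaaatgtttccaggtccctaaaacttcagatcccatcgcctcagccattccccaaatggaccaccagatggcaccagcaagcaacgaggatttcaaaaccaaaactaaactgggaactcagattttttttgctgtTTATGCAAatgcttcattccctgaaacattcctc

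Macrophage genes did not move as a whole. Of 19 measured pan-macrophage genes, 2 were at least 2-fold higher on day 14 than on day 4 and 3 were lower (median log2 ratio -0.37), and the list summed to 11754, 9533 and 9679 CPM. Lyz2, lysozyme, the most abundant, was at 6022, 4649 and 4378 CPM. Lists of macrophage states differed from each other. The lipid-handling list summed to 26238, 20346 and 17071 CPM, with 0 of 18 members at least 2-fold higher and 6 lower (median log2 ratio -0.81). Fabp5, a fatty acid carrier, was at 1075, 420.0 and 148 CPM, 7.24-fold lower on day 14 than on day 4 (5.57 to 9.59). Hmox1, the heme-degrading enzyme induced by red cell uptake, was at 489, 51.2 and 64.0 CPM, so its difference lay between days 4 and 7, 9.55-fold (6.62 to 14.3). Apoe, which carries lipid out of macrophages, was in contrast at 6808, 9422 and 8299.9 CPM. Over all genes, 3.85% were at least 2-fold higher on day 14 than on day 4 and 4.44% lower. Of 25 lysosome genes, 0 were at least 2-fold higher and 3 lower (median -0.46). Of 10 genes of recruited monocytes, 0 were higher and 2 lower (median -0.72). Those 2 were the chemokines Ccl2 and Ccl7, which draw in monocytes, at 238, 64.9 and 56.3 CPM and at 174, 56.3 and 38.4 CPM. Lilrb4a, an inhibitory receptor of myeloid cells, was at 294, 81.9 and 64.0 CPM.

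The resident macrophage list ran the other way after day 7. It summed to 1964, 1772 and 3884 CPM, and 5 of 8 measured members were at least 2-fold higher on day 14 than on day 4 with 0 lower (median log2 ratio 1.10, and -0.10 with the top 20% of spots). Mrc1, the mannose receptor, was at 124, 88.8 and 279 CPM, with a log2 ratio of 1.17 that was -0.11 with the top 20% of spots. Gas6, the bridging ligand for dead-cell uptake, was at 238, 411 and 755 CPM, and Selenop, a secreted selenium carrier, at 599.9, 707 and 1371 CPM. Selenop and Gas6, the most abundant members, are also made by fibroblasts, so the sum is not a level of resident macrophages alone. Stab1, the next member by abundance, did not pass 2-fold, with a log2 ratio of 0.57. Igf1, given above with a log2 ratio of 1.36, is on this list too, and so is Pf4, which went the other way with -0.96. Several myeloid genes were lowest on day 7 and higher again on day 14. Pf4 was at 359, 68.3 and 184 CPM, Msr1, a scavenger receptor, at 179.7, 35.9 and 81.9 CPM, and the chemokine Ccl6 at 569, 118 and 555 CPM. The days around day 7 differed by 1.95-fold, 2.19-fold and 1.02-fold for these 3 genes. Only for Ccl6 were days 4 and 14 close.

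Class II genes, which present antigen to T cells, were higher on the later days. The list summed to 611, 1287 and 1463 CPM, and 2 of 3 measured members were at least 2-fold higher on day 14 than on day 4 (median log2 ratio 1.15, and 0.02 with the top 20% of spots). Cd74, the class II invariant chain, was at 83.5, 335 and 253 CPM, and H2-Aa at 208, 393 and 463 CPM. Of 7 measured interferon genes, 0 were at least 2-fold higher on day 14 than on day 4 and 1 was lower (median -0.50). Over all genes these shares were 3.85% and 4.44%, so counts this small among 7 genes do not set the list apart. The lower gene, Isg15, a ubiquitin-like protein induced by interferon, was at 118 and 119.5 CPM on days 4 and 7 and at 15.4 CPM on day 14, where it had 6 UMIs. T and NK cell genes were near the limit of detection, at 79.3, 85.4 and 102 CPM for 15 genes with 94, 50 and 40 UMIs, and no single gene was measured.

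Of the 46 gene lists, that of antibody-making cells had the largest ratio of day 14 to day 4 in its summed CPM. The B and plasma cell list summed to 103 CPM on day 4 (85.5 to 123), 483 on day 7 (428 to 543) and 5296 on day 14 (5070.5 to 5529), and all 5 measured members were at least 2-fold higher on day 14 than on day 4. The median log2 ratio was 6.60, which is the bound of Ighg2b given below. Igkc, the kappa light chain constant region (chr6:70726435-70726966), was at 60.7, 193 and 2663 CPM, 43.8-fold higher on day 14 (34.5 to 56.5). Igha, the heavy chain of IgA, was at 1.69, 159 and 1632 CPM from 2, 93 and 638 UMIs, a ratio of 967 with an interval of 267 to 8005. Jchain, which joins IgA and IgM units, had 1, 9 and 158 UMIs. Ighg2b, a heavy chain of IgG, had 0, 22 and 96 UMIs, which makes day 14 at least 97.0-fold higher against a floor of 3 counts for the day 4 profile. The B cell genes Cd79a, Cd79b and Ms4a1 had at most 7 UMIs on any day, so the UMIs of the list were almost all of antibody transcripts. Reads of related immunoglobulin genes can be assigned to one another. The other eligible spots held the list at 43.8, 74.5 and 39.9 CPM.

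Most of these UMIs lay in few spots. Of 2070 UMIs of the B and plasma cell list on day 14, 5 of the 244 spots held 50% and the top 10% of spots held 80.1%, with 407 in the highest spot. Smaller numbers reached many more spots, since 146 of the 244 held at least 1 UMI of the list. After thinning to 500 UMIs, 2.99%, 7.77% and 42.2% of the spots of days 4, 7 and 14 held one, against 1.15%, 3.17% and 2.29% of the other spots. S100a8 and S100a9, which form calprotectin of neutrophils, were at 30.4, 47.8 and 366 CPM and at 23.6, 68.3 and 412 CPM, and 3 spots held 50% of their 304 UMIs on day 14. They were the 2 of 3 measured neutrophil genes that were at least 2-fold higher on day 14 than on day 4, and the third, Mmp9, had a log2 ratio of -0.96. The neutrophil list stood at 2104 CPM in the group of day 14 spots richest in collagen, of the 4 groups above, and at 258 CPM in the poorest. The B and plasma cell list stood at 1909.9 and 5601 CPM. Much of both lists lay in few spots, so these values depend on the groups in which those spots fell. No trend with collagen can be read from them. Saa3 was also patchy, with 9 spots for 50% of its UMIs, and was found in 2.49%, 7.77% and 21.3% of thinned spots. C3 needed 28 spots, Eln 42 and the resting fibroblast list 58, and all transcripts together 66. The UMIs of C3 and Eln on day 14 were thus spread more evenly over the spots than those of antibody, calprotectin and Saa3 transcripts.

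**Figure D4:**
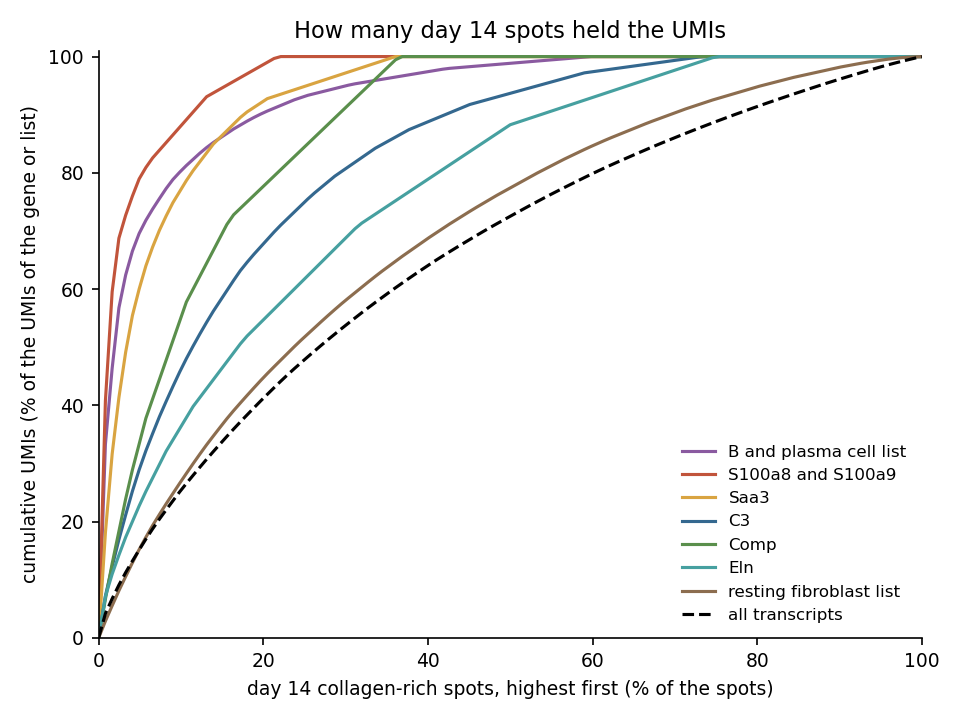
Cumulative share of the UMIs of a gene or list (vertical, percent) against the share of the 244 day 14 collagen-rich spots that hold them, counted from the spot with the most (horizontal, percent). The top 10% of spots held 87.8% of the UMIs of S100a8 and S100a9, 80.1% of the B and plasma cell list, 45.7% of C3 and 36.0% of Eln, against 25.1% of all transcripts (dashed).

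The day 14 spots were then split by 10 UMIs of the B and plasma cell list. The 32 spots with at least 10 held 84.3% of the list's UMIs, which reached 26.7% of all UMIs in 1 spot, and the other 212 spots held none above 1.06%. The 32 spots were also deeper, with a median of 1518.5 UMIs against 1217.5. Their median collagen share was lower, at 2.42% against 2.90%. Ccl21a, a chemokine of lymphatic vessels that draws in lymphocytes and dendritic cells, was at 2333 CPM in the 32 spots and 930.4 CPM in the 212, a ratio of 2.51 (2.01 to 3.11). C3 was at 5305 and 2885 CPM, a ratio of 1.84 (1.60 to 2.11), and C4b at 1595.5 and 951 CPM. Other complement, acute phase and iron genes had ratios nearer 1 than C3. These were C1s1 at 1.40 (0.97 to 1.98), Saa3 at 1.24 (0.97 to 1.57), Lbp at 1.00 (0.51 to 1.81) and Trf at 0.88 (0.63 to 1.21). The intervals count UMIs as independent, so they are too narrow for transcripts that lie in few spots, such as Saa3. Slpi, a secreted protease inhibitor named after its values were seen, was at 877.5 and 208 CPM, a ratio of 4.21 (2.82 to 6.22). Comp was lower in the 32 spots, at 219 against 496 CPM, and Col3a1 differed little, at 14579 against 14171 CPM. Without such spots on any day, the median log2 ratio of the B and plasma cell list was 4.53, C3 was still 3.72 higher on day 14 than on day 4 on the log2 scale and Ccl21a 6.93. Over all spots Ccl21a was at 7.59, 121 and 1110.4 CPM from 9, 71 and 434 UMIs. The mouse genome holds near-identical copies of Ccl21a, so its reads may come from more than 1 gene. Lymphatic genes other than Ccl21a were few, with at most 26 UMIs on any day for each of them but Pdpn, which had 108, 50 and 46 UMIs and is also a gene of fibroblasts and macrophages.

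The remaining cell type lists bear on what else the spots held. Mesothelial genes of the outer heart surface, 12 in all and none measured singly, summed to 22.8, 111 and 429.8 CPM, with 72.0% of the day 14 UMIs in the top 10% of spots. Mast cell genes had 20, 4 and 40 UMIs and adipocyte genes 33, 31 and 6. Endothelial genes were close on the 3 days, at 1928, 2064 and 2313 CPM. Of 12 members, 2 were at least 2-fold higher on day 14 than on day 4 and 0 lower, against 3.85% and 4.44% of all genes. Their median log2 ratio was 0.07, and -0.14 without the cardiomyocyte-rich spots. Aqp1, a water channel of capillaries and 1 of the 2, was at 42.2, 68.3 and 123 CPM. Hemoglobin, limited by the choice of spots, was at 859.7, 872 and 2262 CPM. Genes of S phase and mitosis were lower on later days, at 2358, 1529.7 and 1208 CPM for the list, with 5 of 9 members at least 2-fold lower on day 14 than on day 4 and 0 higher (median -1.09). Mki67, present in dividing cells, was at 76.8, 46.1 and 12.8 CPM, the last from 5 UMIs.

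**Figure D5:**
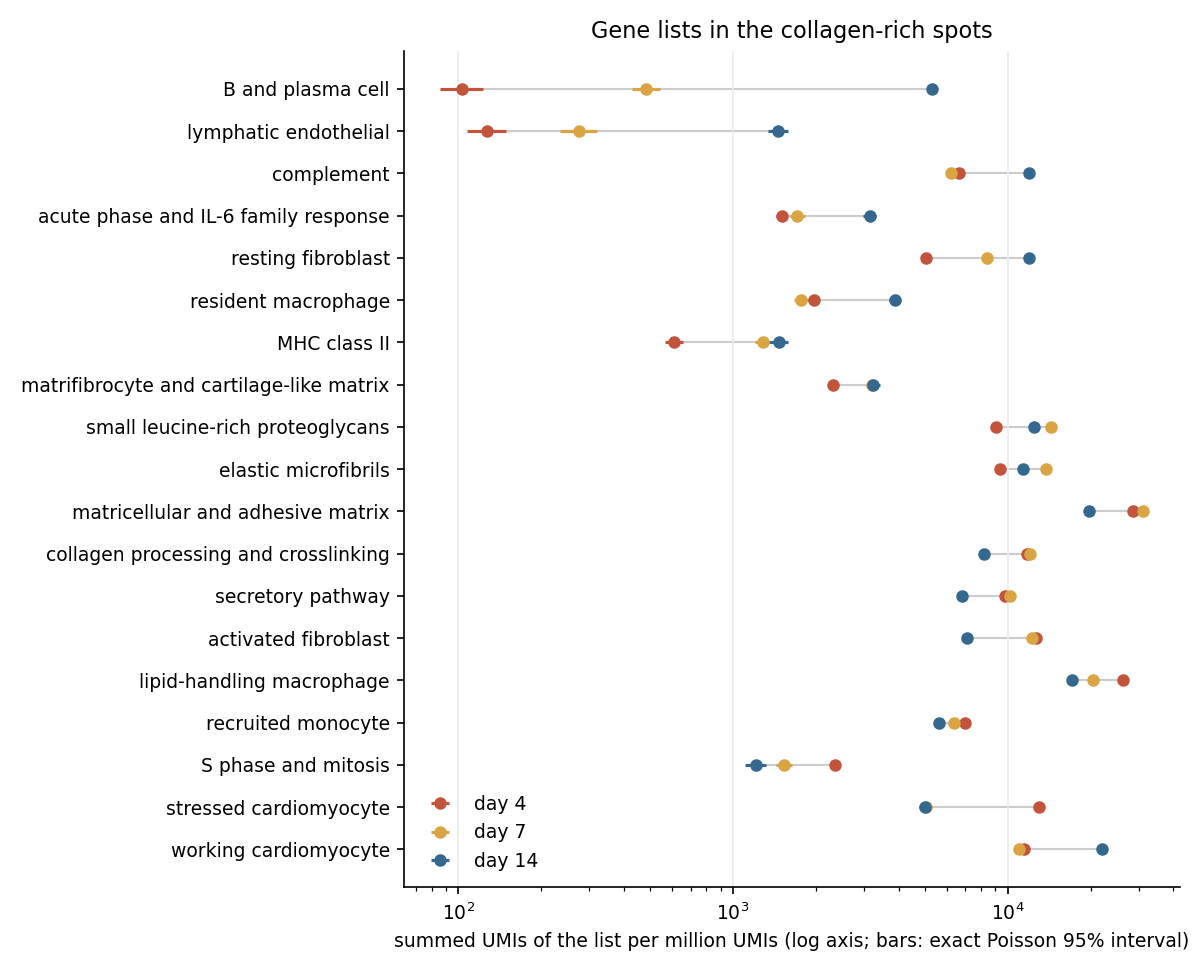
Summed CPM of 19 gene lists in the collagen-rich spots of days 4, 7 and 14 on a log axis, with exact Poisson 95% intervals as horizontal bars. The B and plasma cell list went from 103 to 5296 CPM, the resting fibroblast list from 5033 to 11987, and the activated fibroblast list from 12680.5 to 7097 CPM.

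Heart muscle RNA in the collagen-rich spots differed in kind between the days. Of 22 working cardiomyocyte genes, 12 were at least 2-fold higher on day 14 than on day 4 and 0 lower, with a median log2 ratio of 1.19 that was 0.32 without the spots in which this list took over 2% of UMIs. Myl3, a ventricular myosin light chain, was at 387, 557 and 1456 CPM. Of 12 stress genes of cardiomyocytes, 0 were at least 2-fold higher and 7 lower, with a median of -1.07 that was 0.24 with a minimum of 1000 UMIs per spot. Nppa, the atrial natriuretic peptide that stressed ventricle also makes, was at 4923, 609 and 606 CPM. It was 8.12-fold lower on day 14 than on day 4 (7.13 to 9.28), and the other eligible spots had 6785, 1392 and 129.8 CPM. The size of this difference depended on the spots taken, with a log2 ratio of -3.02 that was -1.51 with a minimum of 1000 UMIs per spot and -5.35 without the cardiomyocyte-rich spots. Nppb, its ventricular relative, was at 191, 106 and 56.3 CPM, a log2 ratio of -1.76 that was 0.48 with the minimum of 1000 UMIs. Sprr1a, a stress protein of cardiomyocytes, was at 251, 75.1 and 5.12 CPM, the last from 2 UMIs, and the ratio of day 4 to day 14 was 49.0 (13.4 to 406).

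A single transcript was almost confined to day 4. AI506816, a non-coding transcript (chr5:23698296-23712667), had 238 UMIs on day 4 and 1 on each later day, at 201, 1.71 and 2.56 CPM. The ratio of day 4 to day 14 was 78.5 with an interval of 14.0 to 3113. The other eligible spots held it at 39.0, 0.607 and 0.131 CPM, so day 4 was the highest day outside the collagen-rich spots too.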

How the data were processed

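Visium measured mRNA in 1 fresh-frozen heart section per day. Per the labels and file headers, the authors made the deposited UMI counts with Space Ranger 1.3.0 on mm10 from images aligned by hand, without normalization and for spots under tissue only, and Seurat 4.1.1 was used downstream. Whether introns or strand entered the counting is not given in the sources used here. The sections held 15572491, 10983077 and 17315715 UMIs on days 4, 7 and 14.

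Spots were chosen as described above, their UMI counts were summed per day, and CPM was computed from the total of each profile. Intervals are exact Poisson intervals for CPM, exact conditional (Clopper-Pearson) intervals for ratios and exact Clopper-Pearson intervals for shares of spots. Genes needed at least 100 UMIs over the 3 profiles to be measured, and a gene counted as higher or lower past 2-fold. A count of 0 was replaced by 3 counts in ratios. Spots were thinned once to 500 UMIs without replacement. No doublet caller was run, since a spot holds several cells, and spot positions were not used here.

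The members and the 46 gene lists were chosen with earlier results of these data known. Named genes were, among those with at least 200 UMIs, the 10 highest and 10 lowest ratios of day 14 to day 4, the 5 highest and 5 lowest of the other comparisons, the 5 highest on day 7 against the higher of the other days, and, among measured members of each list described, the 3 most abundant and 3 most different. The collagens of the choice, Timp1 and Lrp1 were always given, and hemoglobin and sex-linked genes stayed out of the ranking. Genes named beyond this rule are C1ra, Slpi and those of marker lists given by their UMIs. Some listed genes are not reported here. Coordinates are from GENCODE vM21, which matched 32158 of 32285 gene IDs. Results were recomputed under 15 other settings chosen at the start and 4 added after the data were seen. Scripts used Python 3.11.15, numpy 2.4.6, scipy 1.17.1, pandas 2.3.3 and matplotlib 3.10.9 and were tested on simulated data.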

Additional observations from a re-analysis of the deposited data

How the results depend on the processing

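No paired analysis was possible because each day had 1 section. With 1 mouse per day and at most 1185285 UMIs per profile, depth limits genes of few UMIs. Of 114 recomputed counts of genes past 2-fold, 82 stayed within 1.5 times the value in the report, 32 moved and 0 reversed. The moved counts are given as higher and lower, for day 14 against day 7 and then day 14 against day 4. They were 60 and 68, then 88 and 105 with the top 6% of spots, 407 and 1159, then 454 and 1186 with the top 20%, and 316 and 442, then 291 and 481 with 1000 UMIs per spot. With 1 collagen limit for all sections, 280 and 340 genes were lower. With 30 UMIs per gene the counts were 330 and 386 for day 7 against day 4, then 491 and 664, then 461 and 652, with 300 UMIs per gene 43 and 30, 38 and 36, 62 and 56, and with a 3-fold limit 33 and 20, 28 and 25, 63 and 38. The top 20% and the 1000 UMI minimum shifted the median log2 ratio of day 14 to day 4 over all genes to -0.45 and -0.29 and the day 14 cardiomyocyte list to 76753 and 57618 CPM, and the top 20% kept 57 of the 143 higher and 140 of the 165 lower genes. A log2 ratio of day 14 to day 4 was taken as reversed where its sign changed and it had been at least 2-fold for a gene, or beyond the typical counting error of its members for a list median. These were, with the top 20%, Igf1 -0.0816, Mrc1 -0.11, Pdgfra -0.0291, Timp2 -0.088, and the lists of small leucine-rich proteoglycans -0.0279, elastic microfibrils -0.47 and resident macrophages -0.10. They were 0.0687 for the matricellular list and -0.032 for mitochondrial transcripts with 1 collagen limit, and 0.48 for Nppb, -0.0269 for elastic microfibrils, 0.0051 for hypoxia and glycolysis and 0.24 for stressed cardiomyocytes with 1000 UMIs. The cause was not tested. These are 5 of 2928 recomputed log2 ratios of named genes, of which 595 others moved, and 8 of 624 of lists, of which 85 others moved. Counting smaller values too, the sign changed in 119 gene ratios (29 with the top 20%, 24 with 1000 UMIs, 15 with 1 collagen limit) and 22 list medians. The 4 alternatives chosen after seeing the data (without spots rich in plasma cell, cardiomyocyte or mesothelial genes, and totals without muscle genes) changed the sign of 18 gene ratios, at most 0.40 in size, and of the endothelial list median, and of no gene past 2-fold.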
